A study of Mus musculus with 12 samples.

Results

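The genes described here encode the machinery that fills, docks, fuses and recycles synaptic vesicles. They are 39 genes listed by symbol: vesicle proteins, glutamate loaders, Rab3 and active zone genes, SNAREs and their regulators, calcium sensors and recycling genes. No measured value was a criterion for the list, but it was chosen with earlier results of these data known. All 39 had a row among the 43629 gene identifiers of the count table, and all 39 were among the 15241 genes with enough counts to be tested. RNA was sequenced from 12 samples of mouse cortical neuronal cultures. In 6 of them, labelled IFNG, a lentivirus carrying Ifng, the gene of interferon-gamma, gave lasting exposure from 7 days in vitro until harvest 10 days later. The other 6 are labelled Control. The protocol text on the Control samples also describes the Ifng lentivirus, so the labels do not give what the Control cultures received, and they leave out the strain, the age of the donor animals and the promoter of the construct. Separate cultures behind the samples are not stated either. A p-value therefore sets the difference between groups only against the spread of these samples, and that spread may be technical.

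Synaptic vesicles are filled with transmitter, held in a reserve pool by synapsins, brought to the active zone by Rab3 proteins, and docked there by large scaffolds. The SNARE proteins of vesicle and plasma membrane then zip together, complexins hold the complex ready, and synaptotagmins trigger fusion when calcium enters. Clathrin adaptors, amphiphysin, endophilin, dynamin and synaptojanin retrieve the membrane for reuse. In cortical cultures most of these genes are expressed by both excitatory and inhibitory neurons, while the vesicular glutamate transporters mark excitatory ones.

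Levels are given in CPM, counts scaled to a common library size. Library totals ran from 14408343 to 20299507 counts in Control and from 13875435 to 34239380 in IFNG. Ifng itself was read at 4.98 to 17.8 CPM in IFNG libraries and at no more than 0.169 CPM in Control, so no library went against its label. Neuronal identity genes outside the presynapse were abundant, with a summed level of 9978 ± 391 CPM in Control and 8199 ± 442 CPM in IFNG over 20 genes (SD, n = 6 each). The 16 astrocyte markers summed to 3409 ± 162 CPM in Control and 7912 ± 1514 CPM in IFNG, and all 14 that could be tested rose. Microglial markers summed to at most 22.9 CPM in any library, with 6 of 12 (Cx3cr1, Tmem119, C1qb, C1qc, Trem2 and Tyrobp) under 1 CPM in all of them, and endothelial markers to at most 3.10 CPM, with Cldn5 at 0 counts throughout. Oligodendrocyte lineage genes summed to 298 to 402 CPM in Control and 317 to 360 CPM in IFNG, fibroblast and mural markers to 30.3 to 49.3 and 46.9 to 55.7 CPM, and markers of dividing cells to 115 to 192 and 112 to 141 CPM. The part of these other cells in the presynaptic values was not tested.

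IFNG 5 stood apart. It was the lowest IFNG library for 19 of the 39 members, and its deviation from the other 5 IFNG libraries went with transcript size: Spearman's rho with the merged exon length was -0.66 over the 39 members and -0.568 over 9916 genes with a mean of about 10 CPM or more, all read in the same libraries. The other 11 libraries had values of -0.26 to 0.554 over the members. The 19 longest members had a median deviation of -0.389 from the other IFNG libraries on the log2 scale in IFNG 5, and the 20 shorter ones a median of 0.0183. Control 4 was the lowest Control library for 13 members and Control 3 for 11, and Control 6 was the highest for 16. Counts are given with and without IFNG 5 and Control 4, and at the end as a range over each library left out in turn.

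**Figure D1:**
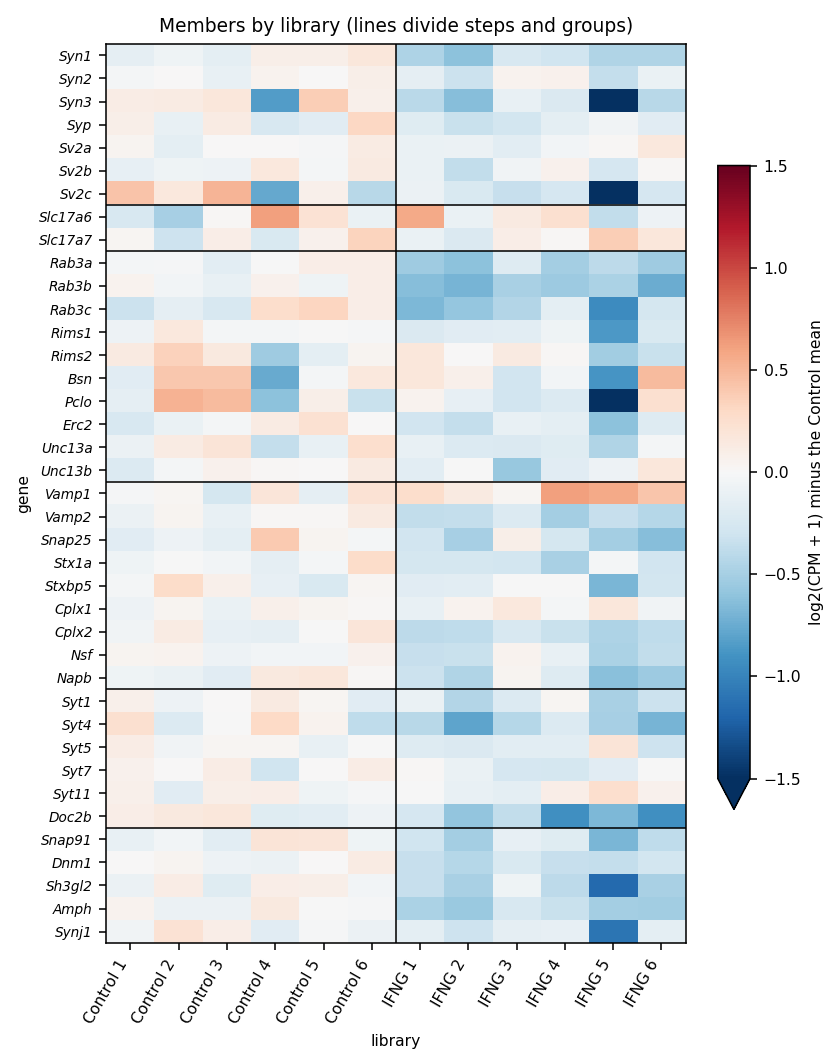
Level of each of the 39 members (rows, grouped by step of the vesicle cycle) in each of the 12 libraries (columns), as log2(CPM + 1) minus the mean of the 6 Control libraries; blue is lower and red higher, and the colour scale is capped at both ends. The Rab3, SNARE and recycling rows are mostly blue in the IFNG columns, IFNG 5 holds the darkest cells (Syn3, Sv2c and Pclo), and Vamp1 is red in IFNG.

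Presynaptic genes moved little and mostly down. Of the 39 members 16 fell and none rose (quasi-likelihood F test of edgeR, Benjamini-Hochberg adjusted over the 15241 genes, threshold 0.05), or 41.0% lower, where 9.79% of all genes tested were lower and 14.3% higher. The 16 had log2 fold changes from -0.62 (Doc2b, -34.7%) to -0.27 (Stx1a, -17.05%). The median log2 fold change was -0.27 over the 39 members and -0.02 over all genes tested. The sign was negative for 34 members, against 52.0% of all genes. The highest value was that of Vamp1, which did not pass (log2 fold change 0.36 ± 0.13 (SE), adjusted p = 0.0552). Without IFNG 5, 13 members fell, without Control 4, 14 fell and Vamp1 rose, and without both libraries 14 fell, with a median of -0.21. In this comparison of whole cultures, fewer neurons, less RNA per neuron and a larger share of RNA from other cells cannot be told apart.

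In 8 members all 6 IFNG libraries lay below all 6 Control libraries: Syn1, Rab3a, Rab3b, Vamp2, Cplx2, Doc2b, Dnm1 and Amph. Such a separation downwards held for 4.09% of all genes tested. In no member did all IFNG libraries lie above all Control libraries, which held for 8.75% of all genes. Of the 16 that fell, 12 were also called in each of the 12 fits that left out a library. The other 4, Erc2, Snap25, Stx1a and Napb, each lost the call in at least some of those fits.

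**Figure D2:**
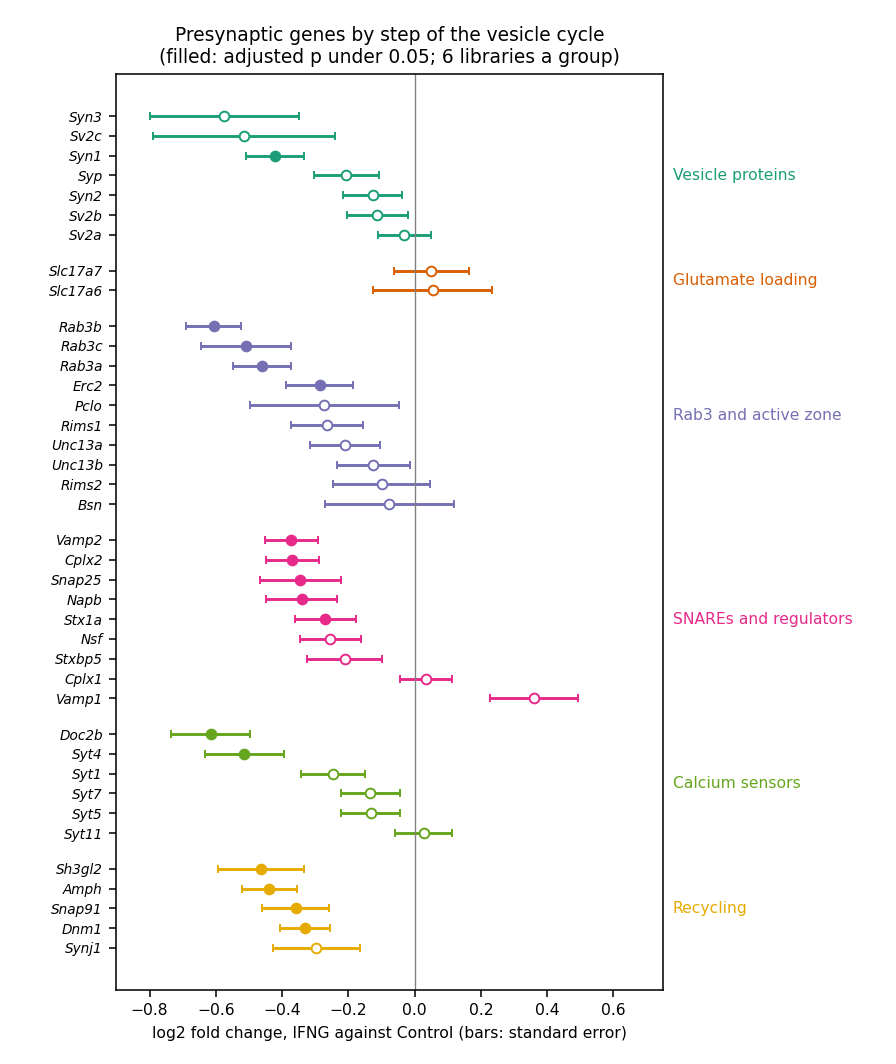
Log2 fold change of each member (x axis, IFNG against Control, bars are the standard error), grouped by step; filled points passed at an adjusted p under 0.05. Recycling genes lie between -0.46 and -0.30, the glutamate loaders at 0.05, and Vamp1 is the rightmost point at 0.36.

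The bases before the transcription start are shown for 4 members: Syn1 and Sh3gl2, which fell and share a motif, Rab3b, which had the smallest adjusted p, and Vamp1, which had the highest positive value. They are the 250 bases upstream of the RefSeq start in GRCm38.p6, on the gene's own strand: Syn1 at chrX:20920919-20921168 (minus strand), Sh3gl2 at chr4:85205206-85205455 (plus), Rab3b at chr4:108878820-108879069 (plus) and Vamp1 at chr6:125215331-125215580 (plus). Capitals mark matches to any of 4 motifs searched on both strands: the core bound by interferon regulatory factors (AANNGAAA), the cyclic AMP response element (TGACGTCA), the left part of the RE1 element of the neuronal repressor REST (TTCAGCACC) and the GC box (GGGCGG).
Syn1: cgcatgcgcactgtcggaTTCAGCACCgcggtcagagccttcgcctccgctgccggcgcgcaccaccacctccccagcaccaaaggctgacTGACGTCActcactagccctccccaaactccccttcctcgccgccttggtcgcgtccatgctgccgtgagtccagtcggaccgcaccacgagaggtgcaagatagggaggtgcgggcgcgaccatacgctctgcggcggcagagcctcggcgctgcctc
Sh3gl2: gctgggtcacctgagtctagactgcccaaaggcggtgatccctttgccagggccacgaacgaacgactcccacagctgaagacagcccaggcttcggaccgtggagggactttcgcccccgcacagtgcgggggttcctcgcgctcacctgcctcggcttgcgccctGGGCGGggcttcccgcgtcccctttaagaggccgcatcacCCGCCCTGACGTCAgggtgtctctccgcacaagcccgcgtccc
Rab3b: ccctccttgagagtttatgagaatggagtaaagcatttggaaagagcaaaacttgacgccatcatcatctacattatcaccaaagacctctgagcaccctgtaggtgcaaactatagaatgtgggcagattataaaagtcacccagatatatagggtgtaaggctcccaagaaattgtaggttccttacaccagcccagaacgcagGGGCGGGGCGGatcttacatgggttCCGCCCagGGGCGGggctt
Vamp1: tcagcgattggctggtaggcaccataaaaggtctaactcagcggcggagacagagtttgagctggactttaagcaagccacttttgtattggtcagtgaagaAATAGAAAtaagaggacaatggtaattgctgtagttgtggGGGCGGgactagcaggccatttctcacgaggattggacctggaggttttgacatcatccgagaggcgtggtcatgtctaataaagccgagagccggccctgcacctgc

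In Syn1 the capitals are the RE1 part and, nearer the start, a cyclic AMP response element. Sh3gl2 has a GC box followed by a second GC box that runs directly into a cyclic AMP response element. Rab3b has 4 GC boxes close to the start, the first pair overlapping, and Vamp1 an interferon regulatory factor core and a GC box. RefSeq windows were matched for 31 of the 39 members and 27025 genes in all. The 27025 were not limited to the 15241 genes tested, as the members were, so the shares below are not matched for expression. The cyclic AMP response element was in 2 of 31 members (6.45%) and in 1.77% of all genes, and both members, Syn1 and Sh3gl2, were among the 12 matched members that fell. The interferon regulatory factor core was in 6 of 31 (19.4%) against 23.9% of all genes, and 1 of those 6, Rab3a, fell. GC boxes were in 22 of 31 (71.0%) against 35.4%, in windows with a mean GC content of 58.5% against 53.2%. They were in 6 of the 12 matched members that fell and in 16 of the 19 that did not. The RE1 part was in 1 of 31 (Syn1) against 0.348% of all genes. These matches describe the letters of the windows, not binding. By the GENCODE M21 gene bounds Sh3gl2 starts at 85205126, so its whole window lies within the annotated gene. The windows of Syn1, Rab3b and Vamp1 reach in part into their genes by those bounds.

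Of 7 vesicle protein genes 1 fell, and 3 (Syn1, Syn3 and Syp) without both Control 4 and IFNG 5. Synapsins coat vesicles and tie them into the reserve pool, and their 3 genes differed in level. Syn1 (ENSMUSG00000037217, GRCm38 chromosome X, 20860511 to 20921004, minus strand) was read at 361 to 450 CPM in Control, with a median of 402, and at 260 to 337 CPM in IFNG, with a median of 293. The groups did not overlap, and Syn1 fell by 0.42 on the log2 scale (SE 0.09, adjusted p = 0.0013). Syn2 ran from 390 to 450 CPM in Control (median 423) and from 329 to 442 CPM in IFNG (median 389), overlapping, with a log2 fold change of -0.13 ± 0.09 (SE, adjusted p = 0.334). Syn3 was far scarcer, at 25.5 ± 6.33 and 17.2 ± 5.58 CPM (SD, n = 6 each), and its fold change was -0.57 ± 0.22 on the log2 scale (adjusted p = 0.0698). Its lowest values were those of Control 4 and IFNG 5, and without both libraries Syn3 fell by 0.53 (adjusted p = 0.00307). In the annotation 14.1% of its exon bases are shared with Timp3 on the opposite strand, which rose by 0.81 (adjusted p = 6.78e-05), so some Syn3 reads are uncertain as to their gene. Syp, the gene of the abundant vesicle protein synaptophysin, averaged 676 ± 99.6 CPM in Control and 586 ± 40.6 CPM in IFNG (log2 fold change -0.21, adjusted p = 0.136), and without Control 4 and IFNG 5 it fell by 0.27 (adjusted p = 0.0348). Part of its exons (16.8%) is shared with an opposite-strand gene. The SV2 genes encode vesicle glycoproteins that bind synaptotagmin. Sv2a had 475 ± 29.0 CPM in Control and 465 ± 37.6 in IFNG, with a log2 difference of -0.03 and a 95% interval of -0.19 to 0.13. Sv2b was at -0.11 (interval -0.29 to 0.07), and Sv2c, under 16 CPM in all libraries, at -0.51 (interval -1.05 to 0.02), or -0.31 without IFNG 5.

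The loaders that pump glutamate into vesicles had no detected change. Slc17a7, the gene of VGLUT1, was read at 311 to 486 CPM in Control (median 401) and 333 to 499 CPM in IFNG (median 403), with 3 of 6 IFNG libraries below the Control median. Its log2 fold change was 0.05 with a 95% interval of -0.17 to 0.28 (adjusted p = 0.799). Slc17a6, the gene of VGLUT2, had 15.02 to 33.6 CPM in Control and 16.6 to 32.6 CPM in IFNG, at 0.05 with an interval of -0.30 to 0.41. Per kilobase of exon, Control cultures held 72.5 CPM of Slc17a7 and 4.13 of Slc17a6.

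All 3 Rab3 genes among the members fell. Rab3 proteins are small GTPases that bring vesicles to the active zone. The remaining Rab3 gene, Rab3d, which is not a member and is named after its values were seen, did not pass (-0.14 on the log2 scale, adjusted p = 0.358). Rab3b (ENSMUSG00000003411, chromosome 4, 108879063 to 108943324, plus strand) ran from 82.8 to 96.4 CPM in Control and from 53.2 to 64.2 CPM in IFNG, far apart relative to the spread within either group. It fell by 0.61 (SE 0.08, adjusted p = 1.47e-05), the smallest adjusted p among the members. An opposite-strand gene shares 9.0% of its exon bases. Rab3a, the most abundant of the 3 per kilobase, ran from 263 to 315 CPM in Control and from 191 to 256 CPM in IFNG, and fell by 0.46 (SE 0.09, adjusted p = 0.000499). Rab3c ran from 256 to 401 and from 166 to 290 CPM, overlapping, and fell by 0.51 (SE 0.14, adjusted p = 0.00918).

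Of the other 7 genes of the Rab3 and active zone step 1 fell. RIM proteins bind Rab3 and calcium channels, and Bassoon and Piccolo (Bsn and Pclo) are giant scaffolds. Bsn ran from 202 to 455 CPM in Control and from 185 to 479 CPM in IFNG, and Pclo from 90.8 to 201 and from 48.2 to 165 CPM. For both genes Control 4 was the lowest Control library and IFNG 5 the lowest IFNG library. Their log2 fold changes were -0.08 (95% interval -0.46 to 0.30) and -0.27 (interval -0.71 to 0.17), and without IFNG 5 they were 0.06 and -0.10. Rims1 stood at -0.26 ± 0.11 (SE, adjusted p = 0.0887), with IFNG 5 at 84.6 CPM against 131 to 147 CPM in the other IFNG libraries, and at -0.16 without IFNG 5 (adjusted p = 0.141). Rims2, at 24.8 to 46.6 CPM in Control, had -0.10 ± 0.15. The priming factor Munc13-1 is encoded by Unc13a, which averaged 481 ± 74.4 CPM over Control and 416 ± 39.7 CPM over IFNG libraries (log2 fold change -0.21, adjusted p = 0.160), and Munc13-2 by Unc13b, at -0.12 ± 0.11. Erc2, a scaffold that binds RIM, went from 144 to 201 CPM in Control to 111 to 158 CPM in IFNG and fell by 0.29 (adjusted p = 0.0423), a call that was lost without IFNG 5 (adjusted p = 0.0868), without Control 4 (0.0897) and without most other single libraries (0.0627 to 0.130 in the 8 that lost it), and with replicate number as a block (0.0615).

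Of the 9 SNAREs and regulators 5 fell (55.6%, where 9.79% of all genes tested were lower). They too were listed as a single step and are divided here only for description. Of 4 SNARE genes 3 fell. Synaptobrevin 2, encoded by Vamp2, is the vesicle SNARE of most central synapses. Vamp2 (ENSMUSG00000020894, chromosome 11, 69088490 to 69092384, plus strand) had the highest level per kilobase of the 39 members, at 209 CPM per kilobase in Control. It ran from 732 to 873 CPM in Control and from 556 to 687 CPM in IFNG, without overlap, and fell by 0.37 (SE 0.08, adjusted p = 0.00163). Its paralog Vamp1 was scarce, at 13.6 to 19.4 CPM in Control (median 16.6) and 16.9 to 25.9 CPM in IFNG (median 21.2). All 6 IFNG libraries of Vamp1 lay above the Control median, and its call depended on the setting: it rose, for instance, with the stricter filter (0.37, adjusted p = 0.0481), with the replicate block (0.36, adjusted p = 0.0435) and when any of Control 4, Control 6, IFNG 2 and IFNG 3 was left out (0.0246 to 0.0473). The plasma membrane SNAREs both fell: Snap25 went from 485 ± 74.7 to 382 ± 72.7 CPM (-0.34, adjusted p = 0.0437) and Stx1a, syntaxin 1A, from 208 ± 22.2 to 172 ± 17.9 CPM (-0.27, adjusted p = 0.0391). In Snap25 the library Control 4 was high at 628 CPM, and IFNG 3, at 511 CPM, exceeded 5 Control libraries. Without Control 4 Snap25 was at -0.24 (adjusted p = 0.139) and without IFNG 5 at -0.30 (adjusted p = 0.0861). Stx1a lost its call without Control 6, its highest library at 251 CPM (adjusted p = 0.137). In all, leaving out single libraries ended the call of Snap25 in 10 of 12 fits and of Stx1a in 9.

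Complexins clamp and promote the assembled SNARE complex, and their 2 listed genes differed. Cplx2 (ENSMUSG00000025867, chromosome 13, 54371349 to 54383917, plus strand) ran from 473 to 586 CPM in Control and from 374 to 439 CPM in IFNG, without overlap, and fell by 0.37 (SE 0.08, adjusted p = 0.00213). Cplx1 ran from 167 to 189 and from 166 to 201 CPM, fully overlapping, with a log2 fold change of 0.03 and a 95% interval of -0.12 to 0.19. Of the genes for SNARE disassembly, Napb, beta-SNAP, went from 371 ± 35.6 to 293 ± 51.5 CPM and fell by 0.34 (adjusted p = 0.0259), and without IFNG 5 its adjusted p was 0.0580, without Control 4 0.0653. The ATPase gene Nsf stood at 416 ± 16.8 and 349 ± 49.8 CPM and just missed the threshold (-0.25, adjusted p = 0.0503). Stxbp5, tomosyn, an inhibitor of SNARE assembly, had -0.21 ± 0.11 (adjusted p = 0.194).

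Of the 6 genes listed as calcium sensors 2 fell. Syt1, the sensor of fast release in forebrain neurons, ran from 749 to 925 CPM in Control (median 855) and from 601 to 862 CPM in IFNG (median 703). The groups overlapped, and its log2 fold change was -0.25 ± 0.10 (SE, adjusted p = 0.0700); with the replicate block it fell. Syt4, which does not bind calcium in the manner of Syt1, ran from 355 to 573 and from 269 to 402 CPM and fell by 0.51 (SE 0.12, adjusted p = 0.0033). An opposite-strand gene shares 14.5% of the exon bases of Syt4, and another 5.53% of those of Doc2b. Doc2b (ENSMUSG00000020848, chromosome 11, 75768966 to 75796049, minus strand), a high-affinity sensor linked to spontaneous and asynchronous release, ran from 73.1 to 93.6 CPM in Control and from 43.4 to 69.7 CPM in IFNG, without overlap. It fell by 0.62 (SE 0.12, adjusted p = 0.000685), the largest fall among the 39 members. Syt5 and Syt7 were both at -0.13 ± 0.09 (adjusted p = 0.312 and 0.309), and IFNG 5 was the highest of all 12 libraries for Syt5. Syt11, the most abundant of the 6 listed genes per kilobase, stood at 941 ± 68.8 and 959 ± 98.2 CPM (0.03, 95% interval -0.14 to 0.20).

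Recycling genes had the highest share of calls, with 4 of 5 lower, where 9.79% of all genes tested were lower. Among the other presynaptic genes described below, most of those for endocytosis, grouped after their values were seen, did not pass. Dnm3, Ap2a2, Ap2b1 and Bin1 of that group fell (adjusted p = 0.00154 to 0.0254). Dnm1, the gene of dynamin 1, which pinches off endocytic vesicles, ran from 552 to 640 CPM in Control and from 439 to 504 CPM in IFNG, without overlap, and fell by 0.33 (SE 0.08, adjusted p = 0.00277). Amph (ENSMUSG00000021314, chromosome 13, 18948205 to 19150921, plus strand), whose product recruits dynamin, ran from 227 to 267 and from 165 to 205 CPM, and fell by 0.44 (SE 0.08, adjusted p = 0.000483). Sh3gl2, endophilin A1, ran from 162 to 198 and from 81.2 to 175 CPM and fell by 0.46 (SE 0.13, adjusted p = 0.0124); IFNG 5 was its lowest library. Snap91, the clathrin adaptor AP180, went from 556 ± 58.4 to 434 ± 62.0 CPM and fell by 0.36 (adjusted p = 0.0137); without Control 4 and IFNG 5 together its adjusted p was 0.0532. The phosphatase gene Synj1 did not pass (-0.30 ± 0.13, adjusted p = 0.113), with IFNG 5 at 145 CPM against 250 to 285 CPM in the other IFNG libraries, and was at -0.17 without IFNG 5 (adjusted p = 0.155).

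**Figure D3:**
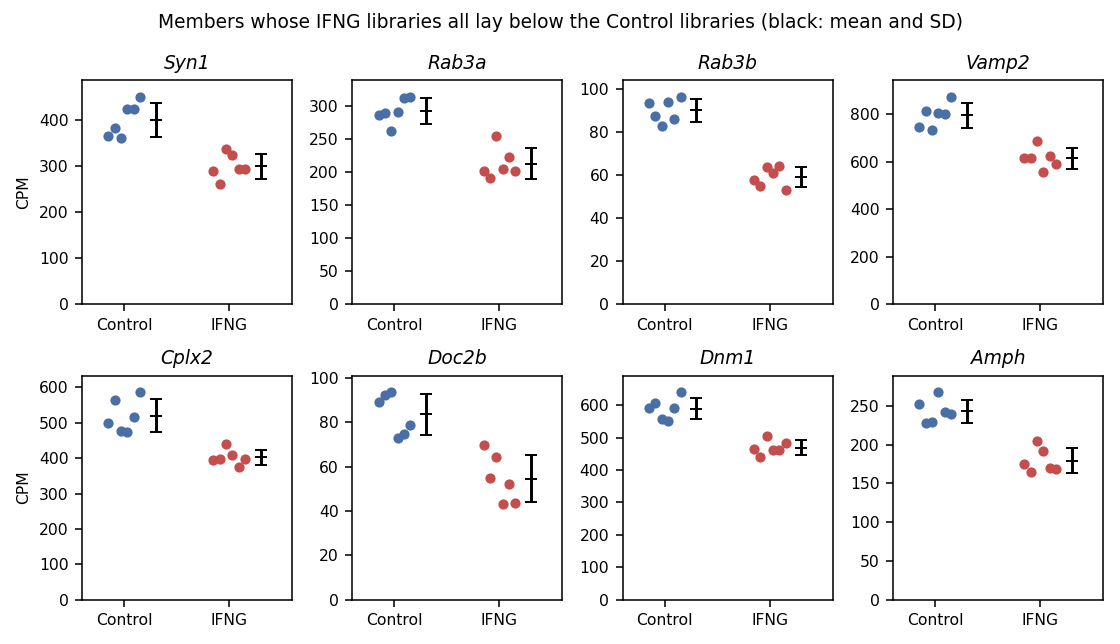
CPM in each library (points; y axis from 0) for the 8 members whose IFNG values all lay below the Control values, with the mean and SD in black, 6 libraries a group. In Rab3b the Control points run from 82.8 to 96.4 CPM and the IFNG points from 53.2 to 64.2 CPM.

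By step, the members that fell were 1 of 7 vesicle proteins, 0 of 2 loaders, 4 of 10 Rab3 and active zone genes, 5 of 9 SNAREs and regulators, 2 of 6 calcium sensors and 4 of 5 recycling genes. The median log2 fold changes of the steps were -0.21, 0.05, -0.27, -0.27, -0.19 and -0.36 in that order. Of all genes tested 9.79% were lower, and of the vesicle proteins 14.3%. The steps share libraries and are small, and differences between them were not tested.

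The ratio of a pair of members within a library does not depend on how libraries are scaled, and 10 pairs were compared by exact two-sided permutation tests over all arrangements of the 12 libraries, with Benjamini-Hochberg adjustment over the 10. The smallest p they can give is 0.00216. Ratios are of counts per kilobase of exon. Vamp2 to Vamp1 ran from 114 to 143 in Control and from 57.2 to 108 in IFNG, without overlap, a log2 change of -0.73 (exact p = 0.00216, adjusted p = 0.0108). Cplx1 to Cplx2 ran from 0.694 to 0.897 in Control and from 0.944 to 1.21 in IFNG, also without overlap, a change of 0.40 (exact p = 0.00216, adjusted p = 0.0108). Syn1 to Syn2 ran from 1.88 to 2.13 in Control and from 1.56 to 1.89 in IFNG, lower in 5 of 6 IFNG libraries than in any Control, a change of -0.29 (exact p = 0.00433, adjusted p = 0.0144). IFNG 5 was the library that reached into the Control range for Syn1 to Syn2. All 3 differences were called in each fit without a library (adjusted p = 0.0108 to 0.0216). The other 7 pairs did not pass. Among them Rab3a to Rab3c (0.05), Slc17a7 to Slc17a6 (-0.02), Unc13a to Unc13b (-0.06) and Sv2a to Sv2b (0.08) had changes under 0.1 in size, while Bsn to Pclo (0.22, adjusted p = 0.335) passed without Control 6 (0.32, adjusted p = 0.0144).

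**Figure D4:**
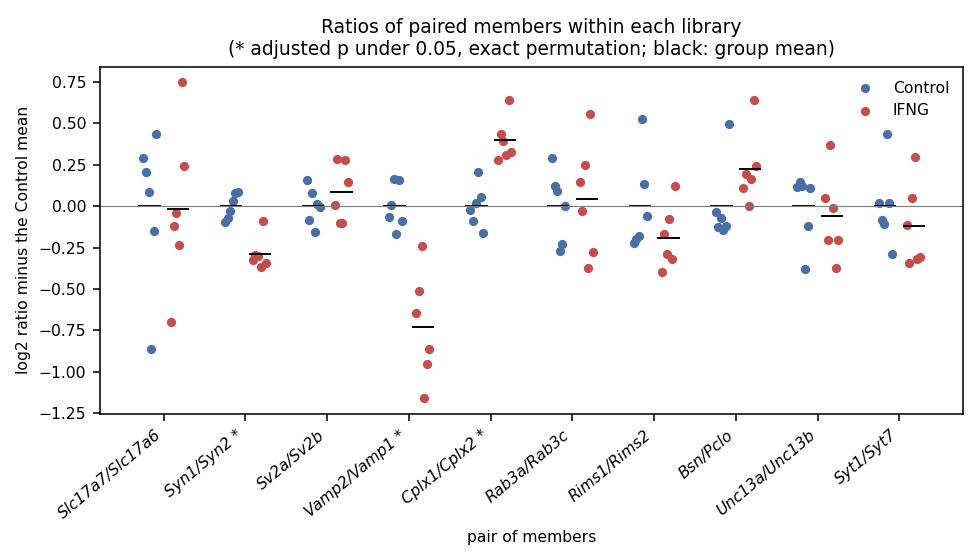
Log2 ratio of 10 pairs of members in each library minus the Control mean (y axis), Control in blue and IFNG in red, black lines the group means; an asterisk marks an adjusted p under 0.05. The ratio Vamp2/Vamp1 is lower and Cplx1/Cplx2 higher in all 6 IFNG libraries, at mean changes of -0.73 and 0.40.

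Genes of other neuronal lists fell in part, where 9.79% of all genes fell. Of the 20 pan-neuronal genes 10 fell and none rose (median -0.28 on the log2 scale), and of 24 postsynaptic genes 10 fell and none rose (median -0.28). Of 12 GABAergic genes 4 fell and 1 rose (median -0.22). The 39 members summed to 12826 ± 287 CPM in Control and 10848 ± 611 CPM in IFNG (SD, n = 6 each), and the ratio of that sum to the pan-neuronal sum ran from 1.24 to 1.33 in Control and from 1.27 to 1.39 in IFNG. With the summed pan-neuronal counts as library size, the median log2 fold change was 0.02 over the members and 0.27 over all genes tested. On that scale 2 members were lower and 5 higher, where 2.0% of all genes were lower and 35.1% higher. The lower ones were Rab3b (-0.32, adjusted p = 0.00784) and Doc2b (-0.34, adjusted p = 0.0382). The higher ones were Vamp1 (0.65, adjusted p = 0.00147), Slc17a7 (0.34, adjusted p = 0.0291), Cplx1 (0.32, adjusted p = 0.00582), Syt11 (0.32, adjusted p = 0.017) and Sv2a (0.26, adjusted p = 0.0307). On library totals that leave out all genes that rose, 11 members were lower and Vamp1 was higher, where 4.92% of all genes were lower and 19.4% higher. The share of lower calls therefore depends on what the members are measured against.

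**Figure D5:**
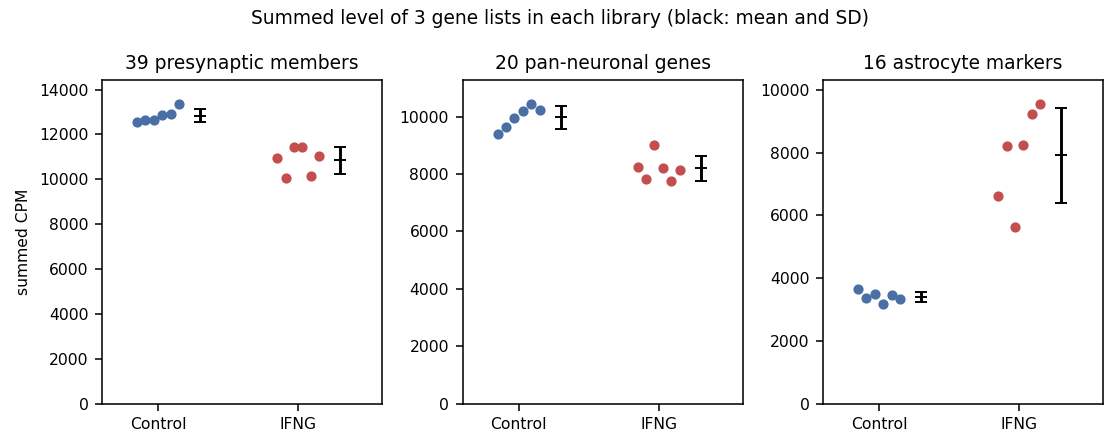
Summed CPM of the 39 members, of 20 pan-neuronal genes outside the presynapse and of 16 astrocyte markers in each library (points, y axis from 0), with the mean and SD in black, 6 libraries a group. The first 2 sums are lower in IFNG (10848 against 12826 and 8199 against 9978 CPM), and the astrocyte sum is higher (7912 against 3409 CPM).

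Of 68 other genes of the vesicle cycle 67 were tested, and 18 fell and 2 rose (26.9% and 2.99%, against 9.79% and 14.3% of all genes). The other 47 did not pass, and the median was -0.14 on the log2 scale. The 5 with the smallest p among those that fell were Synpr, Scamp1, Sncb, Atp6v1g2 and Dnm3. Synpr, the gene of synaptoporin, a relative of synaptophysin, ran from 45.4 to 86.4 CPM in Control and from 29.5 to 37.2 CPM in IFNG and fell by 1.19 (SE 0.13, adjusted p = 7.41e-07). Scamp1, a vesicle membrane protein gene, Sncb, beta-synuclein, Atp6v1g2, a subunit of the proton pump, and Dnm3, dynamin 3, fell by 0.48, 0.49, 0.45 and 0.57. The 2 that rose were Syt2 and Cadps2. Syt2, a fast calcium sensor typical of hindbrain synapses and some interneurons, was read at 0.79 to 2.31 CPM in Control and at 10.4 to 28.2 CPM in IFNG, without overlap, a log2 fold change of 3.98 ± 0.28 (adjusted p = 6.85e-10). Cadps2, a priming factor of dense-core vesicles, ran from 14.7 to 24.9 and from 27.0 to 38.6 CPM and rose by 0.70 (SE 0.13, adjusted p = 0.000603). The chaperone gene Hspa8, which uncoats clathrin vesicles and serves all cells, was the most abundant that did not pass, at 2119 ± 197 and 2364 ± 238 CPM (0.16, adjusted p = 0.216).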

How the data were processed

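The authors deposited a table of raw, unnormalized counts with 1 row a gene and 1 column for each of 12 libraries. STAR 2.4, DESeq2 and the builds GRCm39 and mm10 are named, without roles, in the submitters' processing notes. Neither the read counter nor its strand setting is given, so reads in stretches shared with opposite-strand genes are uncertain. Symbols, positions and merged exon lengths come from GENCODE M21 (GRCm38), which matched 42462 of 43629 identifiers and may differ from the annotation that was counted.

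Counts were fitted in edgeR 4.0.16 (R 4.3.3): TMM scaling, filterByExpr, two-sided quasi-likelihood tests over 15241 genes, Benjamini-Hochberg adjustment at 0.05, no block. Standard errors were derived from the log2 fold change and F, and 95% intervals span 1.96 standard errors to either side. Merged exons cover all isoforms, so levels per kilobase are approximate. Pair ratios add 0.5 count to each gene. No pair of libraries of a group agreed within sampling noise (chi-square per gene at least 5.86). The fit was tested on simulated data.

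The members and lists were chosen with earlier results of these data known. All members may be named. Of the other presynaptic genes, those named have the 5 smallest p-values in each direction among calls, plus the most abundant per kilobase that did not pass. Rab3d, Ap2a2, Ap2b1 and Bin1 are named as well, after their values were seen. Alternatives were 4 other scalings, 2 other filters, the replicate block, DESeq2 1.42.0, and libraries left out.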

Additional observations from a re-analysis of the deposited data

Results flagged for a closer look

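In 98 groups of 6 values (39 members and 10 ratios, 2 groups each), 13 had a library whose gap to its nearest neighbour exceeded Dixon's critical share of the group's range on a log2 scale. Chance alone flags about 1 in 20 groups. IFNG 5 accounted for 8 of them. It was low for Syn3 (7.04 CPM, others 15.5 to 22.8), Sv2c (2.45 CPM, others 8.01 to 9.84), Rims1 (84.6 CPM, others 131 to 147), Pclo (48.2 CPM, others 114 to 165) and Synj1 (145 CPM, others 250 to 285). It was high for Syt5 (218 CPM, others 153 to 170) and for the ratios Syn1 to Syn2 (1.89, others 1.56 to 1.64) and Bsn to Pclo (5.40, others 3.47 to 4.10). Control 4 was low for Syn3 (13.4 CPM, others 26.0 to 32.1) and Syt7 (181 CPM, others 223 to 242). Control 6 was high for Stx1a (251 CPM, others 188 to 205) and Bsn to Pclo (4.89, others 3.14 to 3.38), and Control 2 for Rims1 (172 CPM, others 146 to 153).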

How the results depend on the processing

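The count of 16 lower members was 11 to 18 under every alternative but the pan-neuronal scaling, and 11 of the 16 genes stayed lower in all 20 of those. Without each replicate in turn it ran from 12 to 17, the count of higher members from 0 to 1, the median from -0.31 to -0.20, lower other presynaptic genes from 13 to 21, higher ones from 2 to 3, and the ratios that passed from 3 to 4. Vamp1 was the 1 higher member on totals without the genes that rose, with the filter of 1 CPM in 6 samples and with the replicate block. Samples with the same number deviated together weakly or not at all (correlations of -0.00096 to 0.124 over genes). In each group 2 of 6 libraries were closest to their own number. The labels do not say what the numbers mean, so whether they pair samples is not known. With the block 16 members were lower and 1 higher. On totals without the genes that rose, the members' median was -0.16, and 11 other presynaptic genes were lower and 4 higher. On pan-neuronal counts 2 members were lower and 5 higher (median 0.015), and 2 other presynaptic genes were lower and 11 higher. The median of all genes was 0.10 and 0.27 on these scales.

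Of the values that changed sign, only Sv2a was called on the new side. On pan-neuronal counts these were Syn2 (0.15), Syp (0.080), Sv2a (0.26), Sv2b (0.17), Rims1 (0.015), Rims2 (0.17), Bsn (0.20), Pclo (0.00051), Unc13a (0.072), Unc13b (0.17), Stx1a (0.020), Stxbp5 (0.064), Nsf (0.022), Syt1 (0.034), Syt5 (0.15) and Syt7 (0.15). On totals without the genes that rose they were Sv2a (0.080), Rims2 (0.0086) and Bsn (0.029), and on plain totals Cplx1 (-0.0064) and Syt11 (-0.015). Without Control 4 and IFNG 5 together, Slc17a7 was at -0.049. Without each replicate in turn, the ranges crossed 0 for Sv2a (-0.064 to 0.0074), Slc17a6 (-0.065 to 0.22), Slc17a7 (-0.0079 to 0.14), Bsn (-0.19 to 0.059), Syt11 (-0.0093 to 0.061) and the ratios Slc17a7 to Slc17a6 (-0.19 to 0.12), Rab3a to Rab3c (-0.056 to 0.13) and Unc13a to Unc13b (-0.15 to 0.00032).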
